A study of Saccharomyces cerevisiae with 18 samples.

Results

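The genes described here encode the Nrd1 complex and cleavage factor I of budding yeast, protein assemblies that end RNA polymerase II transcripts. They are 8 genes chosen by name, out of 6465 gene windows counted in every library: NRD1 (YNL251C), NAB3 (YPL190C) and SEN1 (YLR430W) for the Nrd1 complex, and HRP1 (YOL123W), PCF11 (YDR228C), RNA14 (YMR061W), RNA15 (YGL044C) and CLP1 (YOR250C) for cleavage factor I. The set was put together because NRD1 was among the few genes with more reads after auxin in a strain that loses both of its BET-family proteins, so the effect of auxin in that strain, and the calls that the fit over all genes made there, are given for the 8 genes only as a description, without p-values. All 8 were found in the R64 annotation under these symbols and systematic names.

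Nrd1 and Nab3 bind short motifs in the nascent RNA, and Sen1 is a helicase that removes the polymerase and the transcript from the DNA. Together they end small nucleolar RNAs and other short noncoding transcripts, which are then trimmed or degraded by the TRAMP complex and the nuclear exosome. They also end some mRNAs early, and NRD1 mRNA itself is known to be shortened in this way, a feedback on its own level. Cleavage factor I acts where mRNAs are cut and receive their poly(A) tail. Hrp1 and Rna15 bind sequences ahead of the poly(A) site, Rna14 joins them, Pcf11 binds the C-terminal domain of the polymerase, and Clp1 binds Pcf11. HRP1 and PCF11 are among the mRNAs described as attenuated through the Nrd1 pathway.

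Newly made and total mRNA were measured by SLAM-seq, in which cells take up 4-thiouracil (4tU), and RNA made with it shows T-to-C conversions in its reads. There were 6 groups of 3 libraries, labelled as biological triplicates. Strain RDY73 carries OsTIR1, the plant F-box protein that recognises auxin, under the GPD1 promoter with HIS3 (pGPD1-OsTIR1::HIS3), and degron tags on both BET-family genes (BDF2-3XV5-mAID-kanMX and BDF1-3XV5-mAID-URA3). Bdf1 and Bdf2 bind acetylated histones and associate with TFIID. Strain RDY234 carries all of these alleles and, in addition, an untagged BDF1 copy behind the BDF1 promoter with TRP1 (pBDF1-BDF1::TRP1). In each strain, IAA libraries came from cultures treated for 25 min with 1 mM of the auxin 3-indoleacetic acid (IAA), dissolved in DMSO, and then for 4 min with 5 mM 4tU. DMSO libraries came from cultures given DMSO in place of IAA and then the same 4tU, and control libraries from cultures given DMSO in both steps. All cultures grew in YPD at 30 °C, and no strain without the tags or without OsTIR1 is among the groups.

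The libraries held between 4177363 and 8541751 S. cerevisiae reads. The labelled reads, those with at least 2 conversions, numbered between 103348 and 574103 in the 12 libraries given 4tU. Values are given as scaled reads, that is, reads per S. pombe spike-in read of the same kind in that library, times the mean number of such S. pombe reads over libraries. With 4tU the libraries held 8710 to 17677 S. pombe labelled reads, and without it 12209 to 15466, and the scaled labelled values assume that the spike-in cells were labelled alike for every library. A lower scaled value can come from fewer S. cerevisiae cells per S. pombe cell or from less RNA per cell, which cannot be told apart here. BDF1 averaged 712 ± 76.4, 751 ± 25.2 and 748 ± 36.9 scaled reads in the IAA, DMSO and control libraries of RDY73, and 2337 ± 46.2, 2458 ± 14.2 and 2398 ± 288 in those of RDY234, which has the second copy (SD, n = 3 each). TRP1, the marker of that copy, averaged between 11.7 and 14.1 in the groups of RDY73 and between 332 and 340 in those of RDY234.

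A counted window ran from the start of a gene to 250 bases past its end. The windows of NRD1 (chromosome XIV, 172588 to 174315, minus strand) and NAB3 (chromosome XVI, 185317 to 187725, minus strand) overlapped no other window. Those of SEN1 (chromosome XII, 993434 to 1000129, plus strand), HRP1 (chromosome XV, 87844 to 89448, plus strand), PCF11 (chromosome IV, 921926 to 923806, minus strand), RNA14 (chromosome XIII, 392755 to 394788, plus strand) and RNA15 (chromosome VII, 416146 to 417036, minus strand) each overlapped 1 window on the opposite strand. The window of CLP1 (chromosome XV, 800970 to 802307, minus strand) shared 12 bases with that of APC5 and 8 bases with that of TUM1 on its own strand. Reads in the overlaps are of uncertain origin, because the sources used here do not say whether strand was used in counting. Coordinates are those of the genes in the R64 build.

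The first bases of NRD1 and HRP1 are shown because these were the members with more reads after IAA in RDY73 and because early termination acts in this stretch of an mRNA, with NAB3 beside them as a member of the same complex that had fewer. Each coding start is the first 300 bases from the ATG, and the NRD1 promoter runs from 250 bases before the ATG to 50 bases into the coding sequence. The positions in R64 are chrXIV:174266-174565 for the NRD1 promoter, chrXIV:174016-174315 for the NRD1 coding start, chrXV:87844-88143 for HRP1 and chrXVI:187426-187725 for NAB3. HRP1 is read on the plus strand and the others on the minus strand. Capitals mark GTAA or GTAG, the short motif of Nrd1, and TCTT, that of Nab3, on the coding strand.
NRD1 promoter: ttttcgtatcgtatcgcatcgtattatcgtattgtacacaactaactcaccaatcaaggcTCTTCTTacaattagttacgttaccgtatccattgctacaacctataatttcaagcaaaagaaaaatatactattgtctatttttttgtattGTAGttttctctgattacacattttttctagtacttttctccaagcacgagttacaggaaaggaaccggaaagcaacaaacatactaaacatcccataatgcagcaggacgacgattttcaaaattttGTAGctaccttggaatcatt
NRD1 coding start: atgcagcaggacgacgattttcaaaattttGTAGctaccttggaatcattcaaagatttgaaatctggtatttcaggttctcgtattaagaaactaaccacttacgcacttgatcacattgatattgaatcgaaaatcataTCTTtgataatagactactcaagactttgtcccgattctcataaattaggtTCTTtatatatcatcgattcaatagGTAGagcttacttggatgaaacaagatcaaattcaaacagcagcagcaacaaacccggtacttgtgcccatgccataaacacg
HRP1 coding start: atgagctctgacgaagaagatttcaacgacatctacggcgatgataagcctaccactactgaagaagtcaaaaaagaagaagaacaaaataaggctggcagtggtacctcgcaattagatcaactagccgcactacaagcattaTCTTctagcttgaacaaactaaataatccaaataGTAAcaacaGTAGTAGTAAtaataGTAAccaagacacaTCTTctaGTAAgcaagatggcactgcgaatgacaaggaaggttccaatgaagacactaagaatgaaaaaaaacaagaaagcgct
NAB3 coding start: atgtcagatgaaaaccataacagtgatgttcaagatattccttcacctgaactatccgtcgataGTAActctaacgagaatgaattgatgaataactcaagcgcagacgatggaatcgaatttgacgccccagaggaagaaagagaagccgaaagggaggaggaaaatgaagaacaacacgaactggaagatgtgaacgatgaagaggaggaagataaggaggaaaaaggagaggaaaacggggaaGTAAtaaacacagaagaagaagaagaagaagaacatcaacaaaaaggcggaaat

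HRP1 held 6 matches to the Nrd1 motif in its coding start, some of which share a G where they follow each other, and 2 matches to the Nab3 motif. As many Nrd1 matches were found in 1.03% of the 5709 coding starts of this length, in which the median was 1. NRD1 held 2 matches to each motif in its coding start, a number reached by 46.9% of genes for Nrd1 and 38.5% for Nab3. NAB3 held 2 Nrd1 matches and no Nab3 match. The NRD1 promoter held 2 matches to each motif, and those of Nab3 share a T. As many were found in 65.2% (Nrd1) and 61.1% (Nab3) of 5994 promoters of the same length. The HRP1 promoter held 0 Nrd1 matches, the fewest of the members, where the median of all genes was 2, and 2 Nab3 matches. PCF11 held 3 and 1 matches in its coding start, RNA15 4 and 0, CLP1 2 and 1, SEN1 0 and 1, and RNA14 0 and 0. On the opposite strand the coding starts held between 0 and 4 Nrd1 matches and between 0 and 13 Nab3 matches. A match is a run of letters and not a measured binding site. Reads were counted over the whole window of a gene, so shortened and full transcripts were not told apart. Early termination was thus not measured.

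In RDY73, NRD1 and HRP1 had more reads after IAA while the other 6 genes had fewer. NRD1 had 908, 1003 and 1009 scaled reads in the RDY73 IAA libraries, against 318, 319 and 338 in the RDY73 DMSO libraries. The groups did not overlap, and the lowest IAA library held more than any DMSO library by a wide margin. The log2 change was 1.58 ± 0.13 (± SE, edgeR's quasi-likelihood fit over all 18 libraries), rank 3 from the top of 6100 genes. NRD1 averaged 973 ± 56.7 in RDY73 IAA, 325 ± 11.4 in RDY73 DMSO and 429 ± 35.5 in RDY73 control, and 406 ± 68.1, 373 ± 48.5 and 499 ± 46.8 in the same order in RDY234 (SD, n = 3 each). Only the RDY73 IAA group stood clear of all others. From the next level down, the order was RDY234 control, RDY73 control, RDY234 IAA, RDY234 DMSO and RDY73 DMSO, with neighbours within the sum of their SDs.

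**Figure D1:**
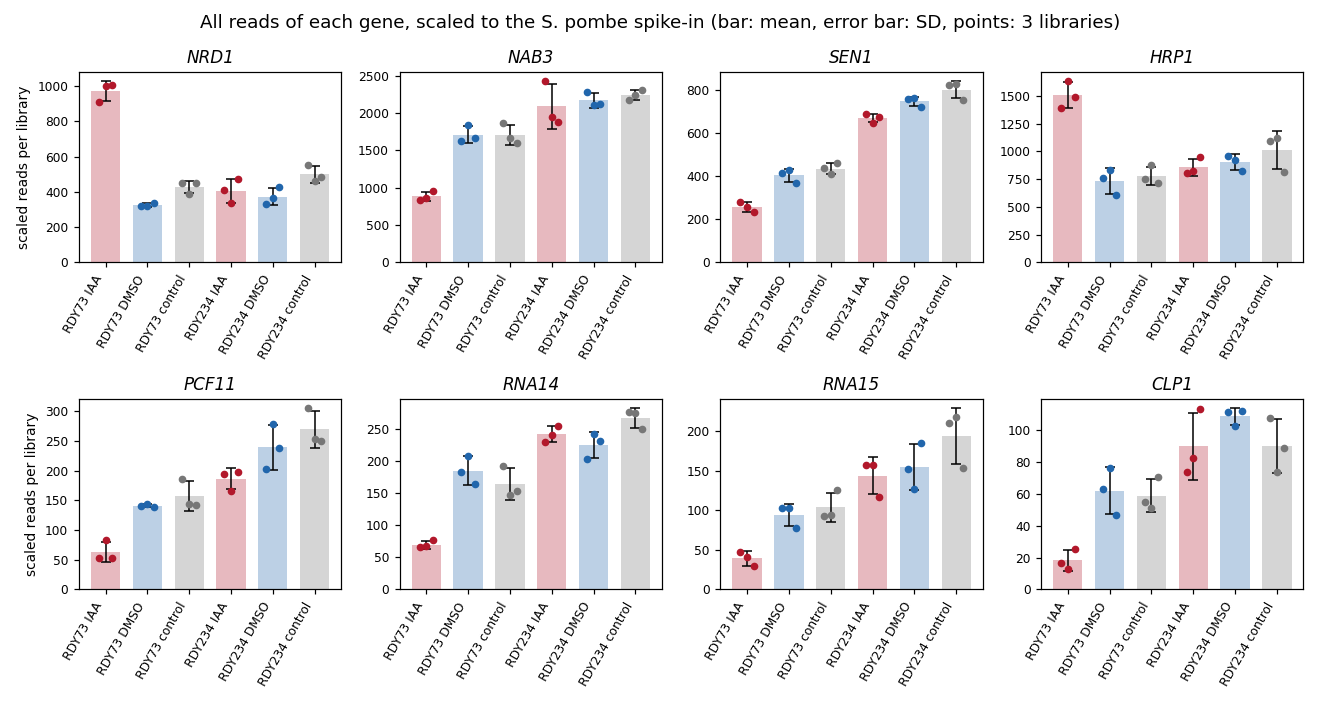
Scaled reads (reads per library relative to the S. pombe spike-in) of the 8 genes in the 6 groups. Points are single libraries, bars the mean and error bars the SD of 3 libraries. NRD1 and HRP1 are highest in RDY73 IAA, at means of 973 and 1509, while the other 6 genes are lowest there.

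NAB3, the partner of Nrd1, had 840.2, 863 and 954 scaled reads in RDY73 IAA, against 1626, 1838 and 1663 in RDY73 DMSO. The log2 change was -0.95 ± 0.12. NAB3 thus moved opposite to NRD1, without overlap of the groups. SEN1, the helicase, had 279.7, 256 and 231 scaled reads in RDY73 IAA, against 412, 427 and 369 in RDY73 DMSO, a log2 change of -0.66 ± 0.13. This was the smallest decrease among the 6 genes that fell.

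Within cleavage factor I, HRP1 stood apart. HRP1 had 1396, 1636 and 1495 scaled reads in RDY73 IAA, against 757, 834 and 604 in RDY73 DMSO, again without overlap. The log2 change was 1.05 ± 0.13, rank 14 of 6100 genes. HRP1 averaged 1509 ± 121, 731 ± 117 and 779 ± 83.7 in the IAA, DMSO and control libraries of RDY73, and 858 ± 75.9, 903 ± 69.3 and 1011 ± 169 in those of RDY234. Below RDY73 IAA, neighbouring groups in the order of levels differed by less than the sum of their SDs.

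PCF11, which couples the factor to the polymerase, had 52.6, 83.2 and 53.3 scaled reads in RDY73 IAA, against 140.0, 144 and 139 in RDY73 DMSO, a log2 change of -1.15 ± 0.18. RNA14 had 65.5, 67.1 and 77.0 in RDY73 IAA, against 184, 208 and 164 in RDY73 DMSO, a log2 change of -1.40 ± 0.16. For both genes every IAA library lay below every DMSO library. RNA15, the RNA-binding partner of Rna14, had 47.6, 40.8 and 29.6 in RDY73 IAA, against 102, 103 and 77.6 in RDY73 DMSO, a log2 change of -1.26 ± 0.22. CLP1 had the fewest reads of the members, 16.9, 12.7 and 25.4 in RDY73 IAA, against 62.9, 75.9 and 46.6 in RDY73 DMSO. Its log2 change of -1.72 ± 0.28 was the lowest of the 8. The lowest library of CLP1 held 15 reads before scaling, so its values carry the largest counting error.

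In the fit over all genes, 2 of the 8 members were called risen and 6 fallen at an adjusted p of 0.05, where 1.16% of the 6100 tested genes were called risen and 77.9% fallen. Without overlap of the groups, 1.48% of these genes were higher and 77.8% lower. These shares are given beside the members' counts only as the background, since the members were chosen from this contrast. The median log2 change of all genes was -1.24, and that of the 7 members other than NRD1 was -1.15. PCF11, RNA14 and RNA15 thus lay close to the middle of all genes, NAB3 and SEN1 above it and CLP1 below it.

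**Figure D2:**
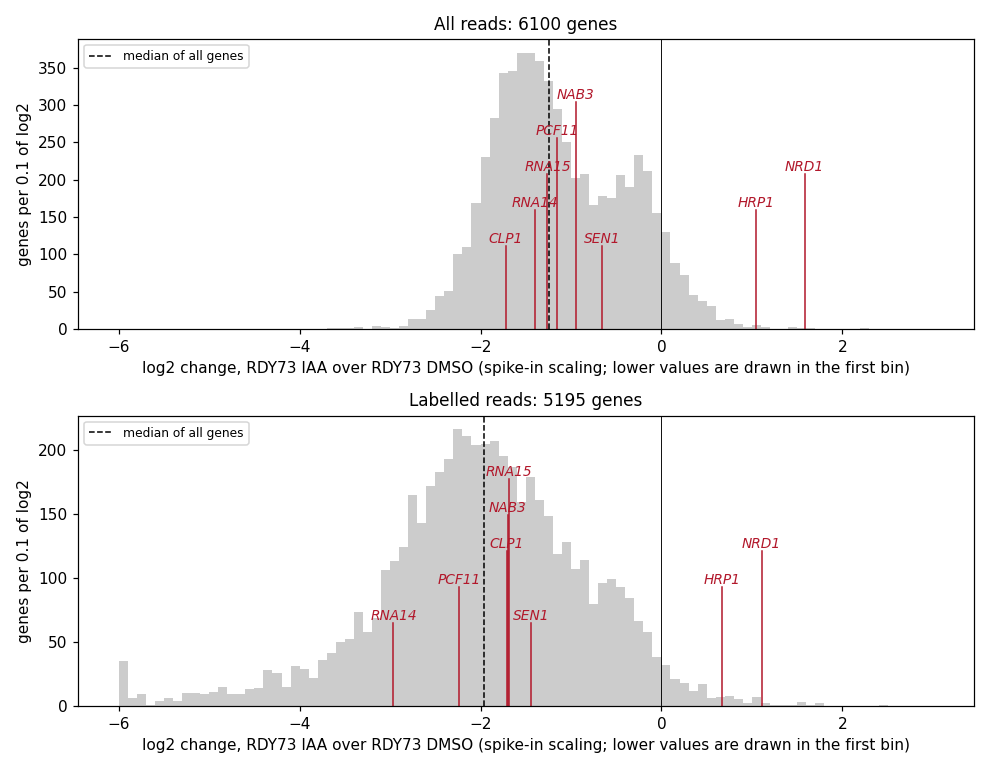
Distribution of the log2 change, RDY73 IAA over RDY73 DMSO, over all tested genes (grey bars, genes per 0.1 of log2; values below the axis range are drawn in the first bin), for all reads above and labelled reads below. Red lines give the 8 genes, with heights chosen only to separate the names; the dashed lines are the medians of all genes, -1.24 and -1.97, and NRD1 and HRP1 lie in the right tail of both.

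Without the spike-in, with libraries scaled to each other over the S. cerevisiae genes (TMM, relative scaling), the median log2 change of all genes was -0.10. The log2 change of NRD1 became 2.73 and that of HRP1 2.21. SEN1 turned to 0.50 and NAB3 to 0.21, so their direction depended on the scaling, while PCF11 was at -0.016, RNA15 at -0.11, RNA14 at -0.25 and CLP1 at -0.57. On this scale 3 members were called risen (NRD1, HRP1 and SEN1), where 29.6% of genes were, and 0 fallen, where 30.8% of genes were. NRD1 and HRP1 were thus higher on both scales, and the other 6 genes were called lower only per spike-in read.

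A ratio of 2 genes within a library needs no scaling. The absolute size of such a ratio also depends on how well each gene is captured, so only the groups are compared. The ratio of NRD1 to NAB3 reads was 1.08, 1.16 and 1.06 in RDY73 IAA, against 0.195, 0.173 and 0.203 in RDY73 DMSO. In the other groups it averaged 0.251 ± 0.0264 (RDY73 control), 0.197 ± 0.0464 (RDY234 IAA), 0.172 ± 0.0278 (RDY234 DMSO) and 0.223 ± 0.0266 (RDY234 control). The ratio was therefore higher in RDY73 IAA than in the other 5 groups. In both strains it was also higher in every control library than in any DMSO library. HRP1 to NAB3 was likewise highest in RDY73 IAA, with 1.66, 1.89 and 1.57 in RDY73 IAA, against 0.466, 0.453 and 0.363 in RDY73 DMSO, and means between 0.416 and 0.457 in the remaining groups. Within cleavage factor I, the ratio of HRP1 to RNA14 averaged 21.7 ± 2.51 in RDY73 IAA and 3.93 ± 0.228 in RDY73 DMSO, with means between 3.54 and 4.82 elsewhere. HRP1 to NRD1 changed least, at 1.55 ± 0.0757 in RDY73 IAA and 2.26 ± 0.428 in RDY73 DMSO.

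**Figure D3:**
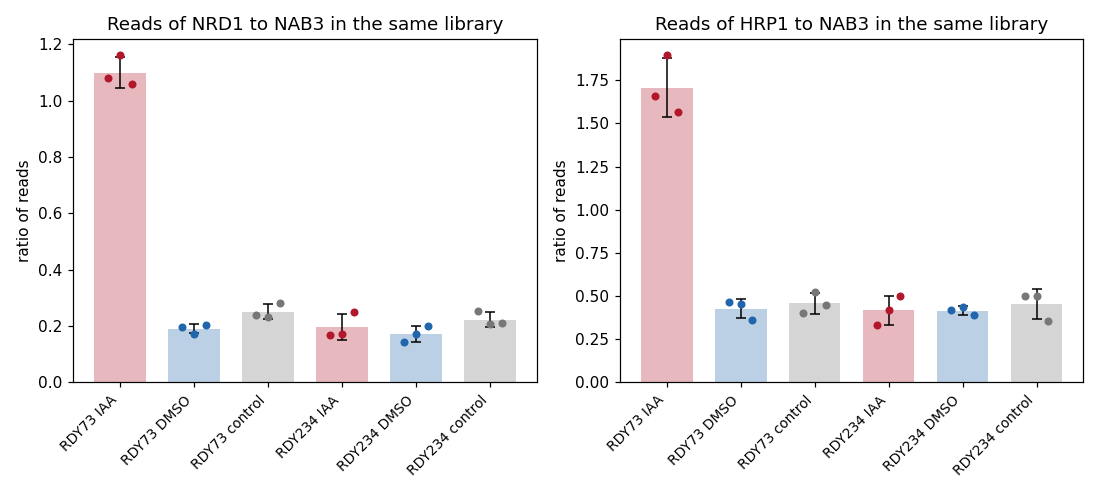
Reads of NRD1 (left) and HRP1 (right) divided by those of NAB3 in the same library, in the 6 groups. Points are single libraries, bars the mean and error bars the SD of 3 libraries. RDY73 IAA averages 1.10 for NRD1 and 1.71 for HRP1, and the other 5 groups lie between 0.172 and 0.251 for NRD1 and between 0.416 and 0.457 for HRP1.

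The labelled reads, made during the last 4 min, had the same split. NRD1 had 70.0, 86.8 and 94.7 scaled labelled reads in RDY73 IAA, against 31.8, 41.4 and 44.1 in RDY73 DMSO, without overlap. The log2 change was 1.11 ± 0.25, rank 12 of 5195 genes tested for new RNA. HRP1 had 54.6, 48.0 and 48.2 in RDY73 IAA, against 24.4, 44.5 and 28.4 in RDY73 DMSO. Here the closest libraries of the groups were near each other, and the log2 change was 0.67 ± 0.29, rank 38. HRP1 did not pass the threshold without RDY73 DMSO replicate A, RDY73 DMSO replicate C or RDY73 IAA replicate A, where its log2 change was 0.50, 0.59 and 0.61.

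NAB3 had 94.7, 76.7 and 66.6 scaled labelled reads in RDY73 IAA, against 244, 288 and 239 in RDY73 DMSO, a log2 change of -1.70 ± 0.18. SEN1 had 19.6, 9.27 and 10.5 in RDY73 IAA, against 25.5, 47.6 and 34.7 in RDY73 DMSO, a log2 change of -1.44 ± 0.34. Both subunits thus had fewer labelled reads in every IAA library than in any DMSO library. Of all genes, 79.4% were lower and 0.346% higher without overlap in labelled reads. PCF11 averaged 5.21 ± 0.907 in RDY73 IAA and 24.7 ± 2.52 in RDY73 DMSO, a log2 change of -2.23 ± 0.44. RNA14 had 0, 4.21 and 4.38 in RDY73 IAA, against 22.3, 24.6 and 26.3 in RDY73 DMSO, a log2 change of -2.96 ± 0.50, the lowest of the members. The library at 0 held no labelled read, which counting error alone allows to be up to 3. RNA15 and CLP1 rested on few labelled reads, with scaled means of 1.47 ± 1.73 and 1.86 ± 1.76 in RDY73 IAA and of 5.38 ± 2.26 and 6.11 ± 1.42 in RDY73 DMSO.

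The log2 changes of RNA15 and CLP1 were -1.69 ± 0.80 and -1.71 ± 0.77. RNA15 did not pass the threshold without RDY73 DMSO replicate A or B or RDY73 IAA replicate A or C (-1.66, -1.41, -1.52 and -1.12), nor CLP1 without RDY73 DMSO replicate A or C or RDY73 IAA replicate B (-1.55, -1.70 and -1.11). In the other direction, RNA15 was at -3.13 without RDY73 IAA replicate B and CLP1 at -2.59 without RDY73 IAA replicate C. With all libraries 2 members were called risen, where 0.385% of genes were, and 6 fallen, where 83.9% of genes were, with a median of all genes of -1.97. Under relative scaling the median was -0.29, NRD1 was at 2.81, HRP1 at 2.38, NAB3 at 0.016, SEN1 at 0.26, PCF11 at -0.56, RNA15 at -0.063, CLP1 at -0.085 and RNA14 at -1.31. NRD1 and HRP1 were then called risen, where 16.2% of genes were, and RNA14 fallen, where 11.6% were. In the control libraries, which had no 4tU, the 8 genes had group means between 0 and 9.60 scaled labelled reads, the highest for NAB3 in RDY234.

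**Figure D4:**
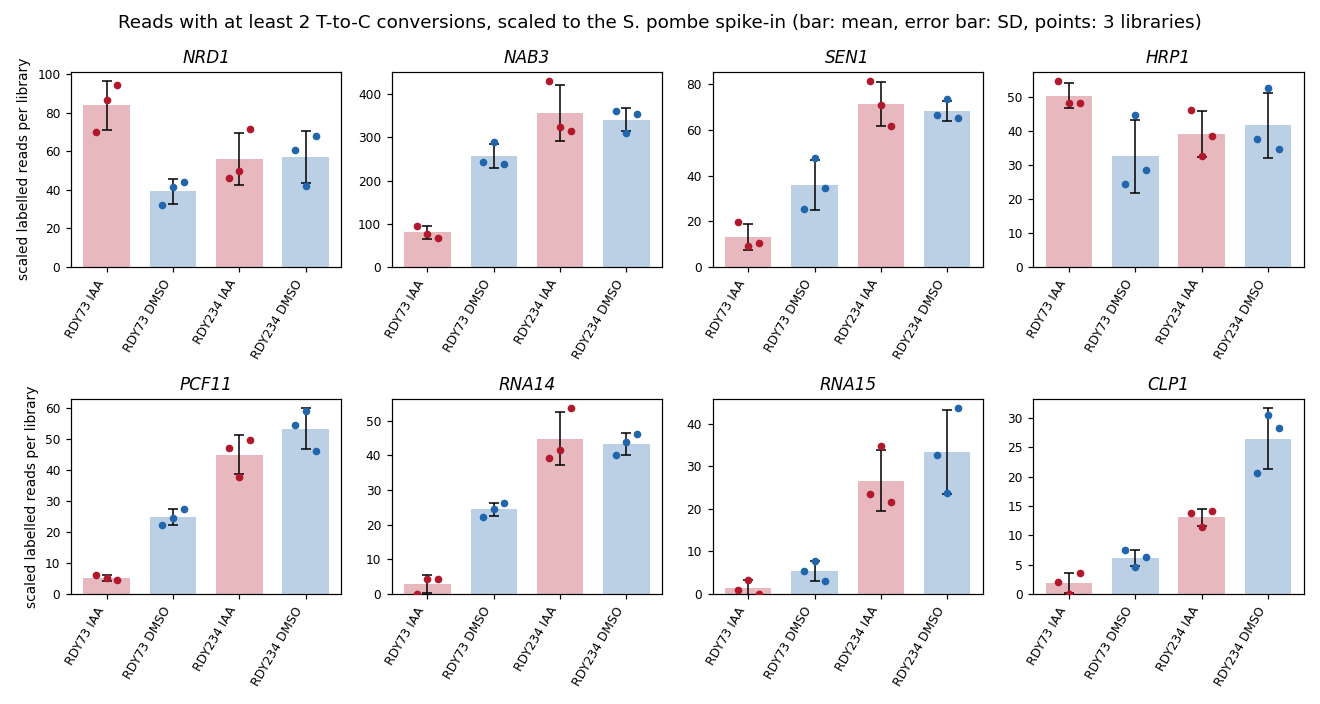
Scaled labelled reads (at least 2 conversions per read, relative to such reads of the S. pombe spike-in) of the 8 genes in the 4 groups given 4tU. Points are single libraries, bars the mean and error bars the SD of 3 libraries. NRD1 and HRP1 are highest in RDY73 IAA, at means of 83.8 and 50.3, and the other 6 genes are highest in RDY234.

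The effect of IAA in RDY234, which keeps an untagged BDF1 copy, was not used to choose the genes and shares no library with the contrast above. NRD1 had 408, 337 and 473 scaled reads in RDY234 IAA, against 330.0, 362 and 425 in RDY234 DMSO. The groups overlapped, and the log2 change was 0.12 ± 0.14 (adjusted p = 0.748, edgeR). HRP1 had 809, 821 and 946 in RDY234 IAA, against 961, 923 and 826 in RDY234 DMSO, with a log2 change of -0.075 ± 0.13 (adjusted p = 0.848, edgeR). NAB3 had 2429, 1947 and 1885 in RDY234 IAA, against 2280.4, 2105 and 2123 in RDY234 DMSO, with a log2 change of -0.056 ± 0.12 (adjusted p = 0.872, edgeR). For these 3 genes the IAA and DMSO libraries thus overlapped.

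PCF11 was the member with the lowest change in all reads, with 195, 166 and 199 scaled reads in RDY234 IAA, against 202, 278 and 237 in RDY234 DMSO, and a log2 change of -0.37 ± 0.16 (adjusted p = 0.609, edgeR). CLP1 was the lowest in labelled reads, with 13.7, 11.3 and 14.1 in RDY234 IAA, against 20.6, 30.5 and 28.2 in RDY234 DMSO, and a log2 change of -1.02 ± 0.45 (adjusted p = 0.977, edgeR). Neither passed after adjustment, although the groups did not overlap. A lower level without overlap was found in 17.3% of genes in all reads and 12.3% in labelled reads. SEN1 also had this order in all reads and was not called (-0.16 ± 0.12, adjusted p = 0.679, edgeR). In labelled reads NRD1 had 46.1, 49.9 and 71.4 in RDY234 IAA, against 60.5, 42.0 and 68.0 in RDY234 DMSO, a log2 change of -0.013 ± 0.25 (adjusted p = 0.997, edgeR). HRP1 had a log2 change in labelled reads of -0.12 ± 0.29 (adjusted p = 0.990, edgeR).

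None of the 8 members was called in RDY234 in either kind of read by edgeR or by DESeq2. Before adjustment 1 member was under 0.05 in all reads (PCF11) and 1 in labelled reads (CLP1). Few genes of any kind were called there, 0.0164% in each direction for all reads and 0.0192% in each direction for labelled reads. The median log2 change of all genes was -0.13 for all reads and -0.12 for labelled reads. Under relative scaling 0 members were called again by edgeR, where 0.23% of genes rose and 0.0164% fell in all reads and 0.0962% rose and 0.0192% fell in labelled reads.

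**Figure D5:**
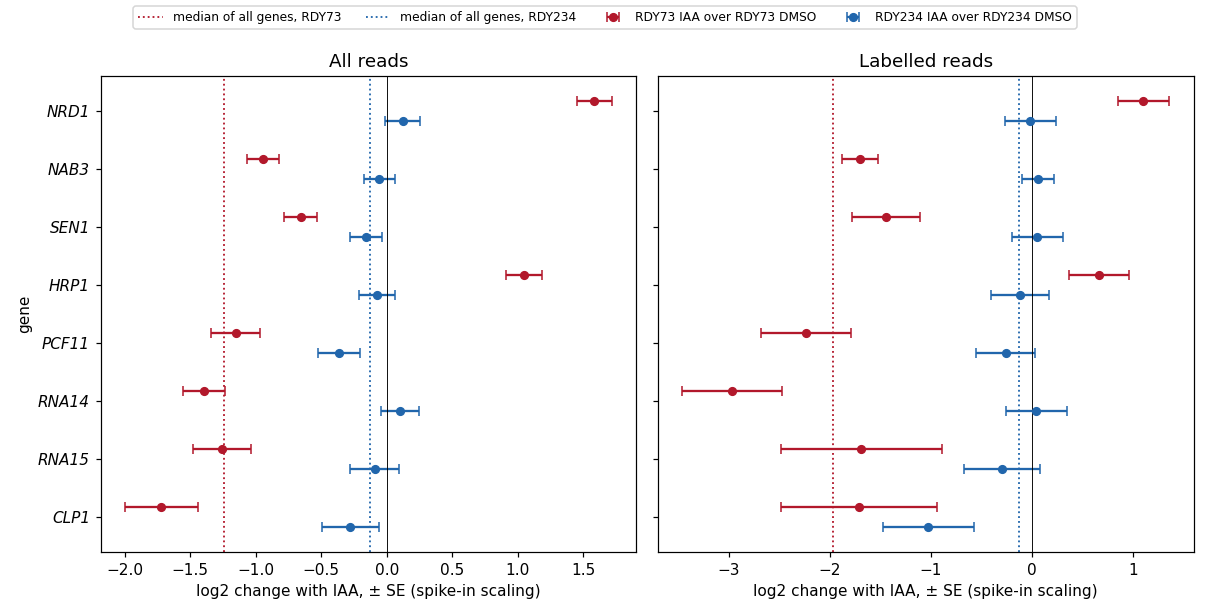
Log2 change with IAA (± SE, spike-in scaling) of the 8 genes in RDY73 (red) and RDY234 (blue), for all reads (left) and labelled reads (right). Dotted lines are the medians of all genes, -1.24 and -1.97 in RDY73 and -0.13 and -0.12 in RDY234; the RDY234 values lie between -0.37 and 0.12 in all reads and between -1.02 (CLP1) and 0.063 in labelled reads.

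The IAA effect in RDY73 minus that in RDY234 contains the contrast that chose the genes and is likewise a description. In all reads it was 1.46 ± 0.19 on the log2 scale for NRD1 and 1.12 ± 0.19 for HRP1. For the other 6 genes it lay between -1.50 (RNA14) and -0.50 (SEN1), around a median of all genes of -1.10. All 8 members passed the threshold, 2 upward and 6 downward, where 0.541% and 69.4% of genes did. In labelled reads NRD1 had 1.12 ± 0.36 and HRP1 0.78 ± 0.41, and NRD1 alone was called upward, where 0.231% of genes were. NAB3, SEN1, PCF11 and RNA14 were called downward, where 74.2% of genes were. On the relative scale SEN1 turned upward in both kinds of read (0.53 and 0.073), as did NAB3 (0.13) and PCF11 (0.22) in all reads. NRD1, HRP1 and SEN1 were then called upward in all reads, where 23.1% of genes were, and RNA14 downward, where 20.9% were. In labelled reads NRD1 and HRP1 were called upward, where 11.6% of genes were, and no member downward, where 6.74% were.

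The addition of 4tU alone was compared within each strain, as DMSO libraries with 4tU over control libraries without it. This comparison uses the same DMSO libraries as the effect of IAA, and in RDY73 a low DMSO level also raises the change by which NRD1 was chosen. NRD1 had 318, 319 and 338 scaled reads in RDY73 DMSO, against 448, 388 and 451 in RDY73 control. In RDY234 it had 330.0, 362 and 425 in DMSO, against 551, 461 and 486 in control. Every DMSO library was below every control library in both strains, an order found in 4.72% of genes in RDY73 and 5.3% in RDY234. The log2 change was -0.40 ± 0.14 in RDY73 (adjusted p = 0.301, edgeR) and -0.42 ± 0.13 in RDY234 (adjusted p = 0.216, edgeR), which did not pass the threshold. Under relative scaling, with nearly the same log2 changes of -0.42 and -0.41, the adjusted p was 0.0451 in RDY73 and 0.0386 in RDY234.

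None of the other 7 members was called on either scale, with log2 changes between -0.16 (PCF11) and 0.16 (RNA14) in RDY73 and between -0.33 (RNA15) and 0.26 (CLP1) in RDY234. Of these, RNA14 was also lower without overlap in RDY234. With the spike-in 0 members were called by edgeR or DESeq2 in either strain, and before adjustment only NRD1 was under 0.05, in both strains. The background was 0.148% of genes fallen and 0.508% risen in RDY73, and 0.18% and 0.393% in RDY234. On the relative scale 0.361% of genes fell and 0.721% rose in RDY73, and 0.475% fell and 1.21% rose in RDY234. The change of NRD1 with 4tU in RDY73 minus that in RDY234 was 0.023 ± 0.19 on the log2 scale, which was not called: 0 of 6100 genes were called in that comparison by edgeR, with 79 at an unadjusted p of 0.05, and 0 members by DESeq2.

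Without IAA or 4tU all members but NRD1 were called lower in RDY73 than in RDY234, as were most genes. SEN1 had 435, 409 and 459 scaled reads in RDY73 control, against 824, 825 and 755 in RDY234 control, a log2 change of -0.88 ± 0.12 (adjusted p = 7.03e-08, edgeR). RNA15 had 92.6, 94.3 and 125 in RDY73 control, against 211, 218 and 154 in RDY234 control, a log2 change of -0.90 ± 0.19 (adjusted p = 5.95e-05, edgeR). These were the largest differences among the members. NRD1 had 448, 388 and 451 in RDY73 control, against 551, 461 and 486 in RDY234 control, and its log2 change of -0.22 ± 0.13 was not called (adjusted p = 0.122, edgeR).

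Of the 8 members 7 fell and 0 rose, where 77.5% of all genes fell and 2.21% rose, and the median of all genes was -0.68. HRP1 (-0.38 ± 0.13) lost its call without RDY234 control replicate A or B or RDY73 control replicate C (-0.32, -0.29 and -0.32), and CLP1 (-0.62 ± 0.23) without RDY234 control replicate A or RDY73 control replicate A or B (-0.47, -0.56 and -0.53). Relative to the S. cerevisiae genes, NRD1 was higher in RDY73 by 0.44 (adjusted p = 0.00193, edgeR) and HRP1 by 0.30 (adjusted p = 0.0212, edgeR), and no member was called lower. On this scale 14.3% of genes were called higher and 9.21% lower.

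The labelled reads of the DMSO cultures also differed between the strains. These RDY73 DMSO libraries enter the contrast that chose the genes. RNA15 had 5.30, 7.67 and 3.15 scaled labelled reads in RDY73 DMSO, against 32.7, 23.8 and 43.6 in RDY234 DMSO, a log2 change of -2.65 ± 0.50 (adjusted p = 7.53e-07, edgeR). CLP1 had 7.43, 4.60 and 6.30 in RDY73 DMSO, against 20.6, 30.5 and 28.2 in RDY234 DMSO, a log2 change of -2.07 ± 0.53 (adjusted p = 0.000249, edgeR). Both lay below the median of all genes, -1.13. NRD1 (-0.53 ± 0.27, adjusted p = 0.0628, edgeR) and HRP1 (-0.41 ± 0.31, adjusted p = 0.195, edgeR) were not called, although NRD1 passed without RDY234 DMSO replicate B (-0.72).

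With the spike-in 6 members fell, where 79.5% of genes did. NAB3 (-0.41 ± 0.16) lost its call without RDY234 DMSO replicate A or RDY73 DMSO replicate A or C (-0.37, -0.38 and -0.36), and RNA14 (-0.83 ± 0.34) without RDY234 DMSO replicate C or RDY73 DMSO replicate A (-0.78 and -0.76). With reads of at least 1 conversion neither was called, at -0.14 for NAB3 and -0.51 for RNA14. Relative to the S. cerevisiae genes only RNA15 was called lower (-1.52, adjusted p = 0.0343, edgeR), where 2.96% of genes were, and only NAB3 higher (0.72, adjusted p = 1.39e-05, edgeR), where 5.64% were.

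The labelled share of a gene, its labelled reads as a percentage of its reads in a library, needs no spike-in and reflects how much of the RNA was made during the labelling. It also depends on how many T positions a read covers, which was 16.4 for NAB3 and between 30.1 and 39.4 for the other members, beside a median of 32.4 over all genes, so shares are compared only within a gene. NRD1 had a labelled share of 7.43%, 8.72% and 9.05% in RDY73 IAA, against 9.58%, 12.6% and 12.1% in RDY73 DMSO. For single libraries, exact Clopper-Pearson 95% intervals, which cover counting error only, reached from 5.82% to 9.33% for the lowest of these IAA libraries and from 6.56% to 13.4% for the lowest of the DMSO libraries. The groups thus did not overlap, but the intervals of their nearest libraries did. HRP1 averaged 3.28% ± 0.430 in RDY73 IAA and 4.20% ± 1.05 in RDY73 DMSO (SD, n = 3 each), and its groups overlapped. Neither gene's mean share was higher after IAA, while its labelled reads and all its reads were. The median share over all tested genes was also lower, at 5.59% in RDY73 IAA and 9.73% in RDY73 DMSO. The median difference was -3.10 percentage points, beside -3.02 for NRD1 and -0.92 for HRP1. Whether IAA changed the uptake of 4tU was not tested. The share averaged 8.85% ± 2.06 in RDY73 IAA and 14.3% ± 0.958 in RDY73 DMSO for NAB3, and 3.94% ± 3.44 and 12.6% ± 1.89 for RNA14. In that contrast 4 members (NRD1, NAB3, PCF11 and RNA14) were lower without overlap, where 37.1% of genes were, and 0 higher, where 0.558% were.

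Between the strains with DMSO, the median share over all genes was 9.73% in RDY73 DMSO and 15.6% in RDY234 DMSO. Whether the strains took up 4tU alike was not tested. NRD1 had 9.58%, 12.6% and 12.1% in RDY73 DMSO, against 19.4%, 12.8% and 16.2% in RDY234 DMSO. RNA15 had 4.95%, 7.25% and 3.75% in RDY73 DMSO, against 22.7%, 20.8% and 23.8% in RDY234 DMSO, the widest gap of the members. The highest upper bound of the exact intervals of these RDY73 libraries was 16.1%, and the lowest lower bound of the RDY234 libraries was 14.0%. For 6 members the RDY73 libraries were all below the RDY234 libraries, each with an exact permutation p of 0.1 (two-sided), the smallest that 3 libraries against 3 allow, and 59.6% of genes shared this order, while no member had the opposite order, which 0.0577% of genes had. SEN1 and HRP1 overlapped, with 4.20% ± 1.05 in RDY73 DMSO and 4.89% ± 1.22 in RDY234 DMSO for HRP1 (exact permutation p = 0.6).

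With IAA in RDY234, only CLP1 separated, with 19.4%, 13.3% and 14.2% in RDY234 IAA, against 19.5%, 33.0% and 25.6% in RDY234 DMSO (exact permutation p = 0.1). Its nearest libraries were almost equal, with exact intervals of 11.1% to 30.5% in RDY234 IAA and 11.8% to 29.4% in RDY234 DMSO. A lower share without overlap was found in 5.87% of genes and a higher one in 3.54%. NRD1 averaged 14.4% ± 2.70 in RDY234 IAA and 16.1% ± 3.28 in RDY234 DMSO (exact permutation p = 0.5). HRP1 averaged 4.79% ± 1.07 and 4.89% ± 1.22 in the same groups (exact permutation p = 1).

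The genes beside NRD1 and HRP1 did not share their rise. MRPL17, a mitochondrial ribosomal protein gene 51 bases past the end of the NRD1 window, fell by 1.80 on the log2 scale in all reads of RDY73 IAA over RDY73 DMSO, and RAD50, a DNA repair gene on the other side, by 1.55. Beside HRP1, TRM11, a tRNA methyltransferase gene, fell by 1.98 and SMF1, a metal transporter gene whose window overlaps on the opposite strand, by 1.05. All 4 also fell in labelled reads, by 2.39, 4.39, 2.60 and 1.65. Of the windows that overlap the other members, ATG23 (-1.42), SIR4 (-1.57), RIM8 (-1.02), APC5 (-2.46) and TUM1 (-1.52) fell in all reads, and ARG7, opposite RNA14, was not called (-0.28 in all reads and 0.34 in labelled reads).

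Other genes of transcript ending were lower in RDY73 after IAA, with no riser on the spike-in scale. They are given as counts of genes called in the same fits, to be read beside the 83.9% of all genes that fell in labelled reads and the 77.9% in all reads. Of 15 genes of the cleavage and polyadenylation factor, 15 fell in labelled reads (median log2 change -2.28) and 15 in all reads (-1.61). They ranged in labelled reads between -4.02 for PAP1, the poly(A) polymerase, and -1.36 for SSU72, a phosphatase of the polymerase tail, and in all reads between -2.21 for SYC1, a small subunit, and -0.53 for PTA1. Of 18 genes of TRAMP and the nuclear exosome, 17 fell in each kind of read (medians -2.34 and -1.66). The lowest were RRP42, an exosome ring subunit, in labelled reads (-3.75) and MPP6, an exosome cofactor, in all reads (-2.33). AIR2, a zinc-knuckle subunit of TRAMP, was not called in labelled reads (-0.96), and TRF5, a poly(A) polymerase of TRAMP, not in all reads (-0.045).

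Of 5 genes of torpedo termination and of the polymerase tail, 5 fell in each (medians -2.11 and -1.51), between -2.52 for RAT1, the nuclear exonuclease, and -1.33 for RTT103, a polymerase tail-binding protein, in labelled reads, and between -2.08 for RAI1, the partner of Rat1, and -1.04 for RTT103 in all reads. These medians lay below those of all genes, -1.97 and -1.24, and below those of the members other than NRD1, -1.70 and -1.15. Under relative scaling the calls in all reads were 2 risen and 8 fallen for the cleavage and polyadenylation factor, 1 risen and 12 fallen for TRAMP and the exosome and 0 risen and 3 fallen for the last list, where 29.6% of genes rose and 30.8% fell. PTA1, a scaffold of the polyadenylation factor, and TRF5 were the highest there, at 0.62 and 1.10, so their direction depended on the scaling.

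A list of genes described as attenuated through the Nrd1 pathway, written from general knowledge, had higher medians than these lists, a difference that was not tested, although LEO1 and ADE12 lay below their medians in labelled reads and LEO1 in all reads. Of 7 such genes, 6 fell in labelled reads (median -0.76) and 4 in all reads (-0.37), and 0 rose. CLN3, a G1 cyclin gene, was the highest, at -0.45 ± 0.20 in labelled reads and 0.17 ± 0.15 in all reads, where it was not called. IMD2, an IMP dehydrogenase gene with near-identical copies between which reads can be split, was at -0.76 ± 0.29 and -0.25 ± 0.14 and was not called in all reads. URA2, of pyrimidine synthesis, was at -0.65 ± 0.27 and -0.37 ± 0.14, and URA8, a CTP synthase gene, at -0.70 ± 0.66 and -0.023 ± 0.19, which was called in neither. GSC2, a glucan synthase gene, was at -1.63 ± 0.48 and -0.48 ± 0.15, and ADE12, of AMP synthesis, at -2.47 ± 0.56 and -0.86 ± 0.17. LEO1, a Paf1 complex gene whose place in the list is the least certain, was the lowest, at -3.50 ± 0.38 and -1.74 ± 0.15. None of them had the increase per spike-in read that NRD1 and HRP1 had. PCF11, a member also described as attenuated, was at -2.23 in labelled reads and -1.15 in all reads. Relative to the S. cerevisiae genes, 3 of 7 were called risen in labelled reads and 5 in all reads, where 16.2% and 29.6% of genes were, and LEO1 alone was called fallen. In RDY234 IAA over RDY234 DMSO the medians of the 4 lists lay between -0.31 and -0.17 in labelled reads and between -0.23 and -0.084 in all reads.

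The genes whose scaled reads followed NRD1 most closely were picked by the correlation of log2 values (prior count 2) across libraries. The 2 values of a library share its depth and scaling, and the libraries include those of the contrast by which NRD1 was chosen. The correlations are therefore a description and partly restate that contrast. Over the 18 libraries and all reads they were TDH2, a glycolytic dehydrogenase gene (Pearson r = 0.90), HRP1 (0.85), SER3, of serine synthesis (0.84), GAS2, a cell wall transferase gene (0.83), and SNR128, a small nucleolar RNA gene (0.73). HRP1 was thus rank 2 of the genes closest to NRD1. Over the 12 libraries given 4tU and labelled reads they were SER3 (0.92), TDH2 (0.79), SNR61, a small nucleolar RNA gene (0.71), TDH1, a further glycolytic dehydrogenase gene (0.70), and RTC3 (0.69), with HRP1 at rank 17 (0.48). NAB3 had r = -0.78 with NRD1 in all reads and -0.63 in labelled reads. TDH1 and TDH2 belong to a family of closely similar genes, among which reads may be split.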

How the data were processed

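Per the labels' protocols, 3′ mRNA-seq libraries were made from cultures mixed with S. pombe cells as a spike-in. Reads were trimmed with fastp 0.23.2, per the submitters' processing notes, and aligned and counted with SLAM-DUNK 0.4.3 on the SGD annotation, per the file headers. The deposited tables hold counts of reads per gene window, and counts of reads with at least 1 or at least 2 T-to-C conversions were taken from them. Builds named in the processing notes are R64 and ASM294v2. The sources used here do not give how reads that match several genes were handled, whether strand was used or whether duplicates were removed.

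From the deposited counts, scaled reads were computed with the S. pombe sum of the same library and kind of read. Genes with at least 10 reads in at least 3 libraries were tested: 6100 for all reads (18 libraries) and 5195 for reads with at least 2 conversions (12 libraries). All 8 members passed both filters. edgeR 4.0.16 (R 4.3.3) fitted a quasi-likelihood model with 1 mean per group and the S. pombe sums as library sizes. P-values were adjusted by Benjamini-Hochberg over all genes tested, and a gene was called at an adjusted p of 0.05. The SE was derived from the log2 change and the F statistic. The fits were also run on simulated counts in which a set of genes changed in RDY234 IAA only. These counts had the same spread for every gene and no fall of most genes in RDY73. They therefore do not bear on the RDY73 contrast. The alternatives were TMM over S. cerevisiae genes (relative scaling) or over S. pombe genes, DESeq2 1.42.0, no filter, at least 1 conversion, only the groups compared, a replicate block and leaving out each library. Labelled shares were compared with an exact permutation test in Python 3.11.15 with scipy 1.17.1. The S. pombe reads numbered 387855 to 792178 per library, of which 8710 to 17677 had at least 2 conversions, so the scaling of labelled reads has the larger counting error. The libraries are labelled as biological triplicates. Repeat libraries differed by more than counting error in every pair.

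The members, the gene lists and the tests were chosen with earlier results of these data known. The genes named beside the members were the 5 with the highest correlation to NRD1, the annotated neighbours of NRD1 and HRP1, overlapping windows, and from each list the lowest and highest gene, with all genes of the list of attenuated mRNAs. Promoters, coding starts and their coordinates are from the RefSeq R64 genome.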

Additional observations from a re-analysis of the deposited data

Results flagged for a closer look

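The response to IAA differed between RDY73 and RDY234 beyond the threshold of edgeR's interaction term for the genes that follow. The term contains the contrast by which the genes were chosen. Values are the log2 change with IAA in RDY73 minus that in RDY234, with the spike-in.

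In all reads the difference was 1.46 for NRD1, -0.89 for NAB3 and -0.50 for SEN1, of the Nrd1 complex. Within cleavage factor I it was 1.12 for HRP1, -0.79 for PCF11, -1.50 for RNA14, -1.17 for RNA15 and -1.44 for CLP1. The median of all genes was -1.10, and 0.541% of all tested genes passed upward and 69.4% downward. In labelled reads it was 1.12 for NRD1, -1.76 for NAB3, -1.50 for SEN1, -1.97 for PCF11 and -3.01 for RNA14, with a median of all genes of -1.82. HRP1 (0.78), RNA15 (-1.39) and CLP1 (-0.68) did not pass in labelled reads, where 0.231% of all tested genes passed upward and 74.2% downward.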

How the results depend on the processing

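The members were most sensitive to the scaling. With TMM over the S. cerevisiae genes, log2 changes reversed in RDY73 IAA over RDY73 DMSO for NAB3 (0.016 in labelled reads, 0.21 in all reads) and SEN1 (0.26 and 0.50). They reversed in RDY234 IAA over RDY234 DMSO for NRD1 (0.12) and HRP1 (0.0036) in labelled reads and for NAB3 (0.073), HRP1 (0.052) and RNA15 (0.052) in all reads. In the IAA effect of RDY73 minus that of RDY234, SEN1 (0.073), RNA15 (0.088) and CLP1 (0.81) reversed in labelled reads and NAB3 (0.13), SEN1 (0.53) and PCF11 (0.22) in all reads. In RDY73 DMSO over RDY234 DMSO, labelled reads reversed for NRD1 (0.61), NAB3 (0.72), SEN1 (0.15), HRP1 (0.70), PCF11 (0.020) and RNA14 (0.30). In RDY73 control over RDY234 control, NRD1 (0.44), NAB3 (0.26), HRP1 (0.30) and CLP1 (0.041) reversed. With this scaling the members called in labelled reads were 1 fallen in RDY73 IAA over RDY73 DMSO, against 6 with the spike-in, 0 fallen and 2 risen in the IAA effect of RDY73 minus that of RDY234, against 4 and 1, and 1 fallen and 1 risen in RDY73 DMSO over RDY234 DMSO, against 6 and 0. In all reads they were 0 fallen in RDY73 IAA over RDY73 DMSO, against 6, 1 fallen in the IAA effect of RDY73 minus that of RDY234, against 6, 1 fallen with 4tU in each strain, against 0, and 0 fallen and 2 risen between the controls, against 7 and 0. The construction of this scaling moves all genes together: the medians of all genes moved as stated in the report. The share of genes that fell moved likewise. In labelled reads it was 83.9% with the spike-in and 11.6% with this scaling in RDY73 IAA over RDY73 DMSO. It was 74.2% and 6.74% in the IAA effect of RDY73 minus that of RDY234, and 79.5% and 2.96% in RDY73 DMSO over RDY234 DMSO. In all reads of RDY73 IAA over RDY73 DMSO it was 77.9% and 30.8%, and between the controls 77.5% and 9.21%. Shares with this scaling for the other counts are stated in the report.

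With TMM over the S. pombe genes, NAB3 (-0.019), SEN1 (-0.026) and RNA14 (-0.049) reversed in labelled reads of RDY234 IAA over RDY234 DMSO and NAB3 (0.028) with 4tU in RDY73, and 2 members were called risen in labelled reads in the IAA effect of RDY73 minus that of RDY234. NRD1 (-0.80) and HRP1 (-0.69) were then called lower in labelled reads of RDY73 DMSO over RDY234 DMSO, and HRP1 (-0.23) was no longer called between the controls. With at least 1 conversion, SEN1 (-0.21) and RNA14 (-0.042) reversed in RDY234 IAA over RDY234 DMSO, and 2 members were called risen in the IAA effect of RDY73 minus that of RDY234. There RNA15 (-1.80) was also called in the IAA effect of RDY73 minus that of RDY234, and NAB3 (-0.14) and RNA14 (-0.51) were no longer called lower in RDY73 DMSO over RDY234 DMSO. With at least 1 conversion, the labelled shares of NAB3 in RDY73 DMSO and RDY234 DMSO overlapped, with nearest libraries at 30.52% and 30.45%. Those of SEN1 then did not overlap, though the nearest libraries were almost equal, at 20.936% and 20.943%. The cause of these changes was not tested. How many of all genes were called is not given for these settings, so the members' counts in them have no background beside them. DESeq2, no filter, fits of only the groups compared and subtracting the share of libraries without 4tU changed no direction and no call of a member.

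Leaving out 1 library at a time gave 1 to 2 members risen and 4 to 6 fallen in labelled reads of RDY73 IAA over RDY73 DMSO, 1 to 2 risen and 4 to 5 fallen in the IAA effect of RDY73 minus that of RDY234, 4 to 7 fallen in RDY73 DMSO over RDY234 DMSO and, in all reads, 5 to 7 fallen between the controls. In all reads of RDY73 IAA over RDY73 DMSO, 2 were risen and 6 fallen each time. No share of all genes is given for these fits, so the ranges describe only how stable the members' counts were. The count of members with a higher share in RDY234 IAA than in RDY234 DMSO ranged from 0 to 1 and with a lower one from 1 to 2. The direction changed for values near 0: in RDY234 IAA over RDY234 DMSO, labelled reads, NRD1 ranged from -0.22 to 0.13, NAB3 from -0.092 to 0.14, SEN1 from -0.042 to 0.15, HRP1 from -0.25 to 0.10 and RNA14 from -0.098 to 0.13. In all reads of that comparison NRD1 ranged from -0.0029 to 0.24, NAB3 from -0.18 to 0.011 and RNA15 from -0.22 to 0.055, and with 4tU in RDY73 NAB3 from -0.057 to 0.063, HRP1 from -0.20 to 0.029, RNA15 from -0.23 to 0.0049 and CLP1 from -0.10 to 0.23.

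Replicate letters were not found to pair the libraries: same-letter deviations correlated between -0.095 and 0.151, with 1 of 18 pairs over 0.1, and in 5 of 18 pairs the own letter correlated best. With the replicate block, 2 members were risen and 6 fallen in all reads of RDY73 IAA over RDY73 DMSO, no member count changed, and NAB3 reversed with 4tU in RDY73 (0.00045). The comparison of the 4tU effect between strains was added after the data were seen. Depth limits RNA15 and CLP1 most, with 0 to 4 labelled reads in each RDY73 IAA library.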

Other observations

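Small nuclear and nucleolar RNA genes were looked at in a list chosen after the data were seen. The Nrd1 complex is known to end such transcripts where RNA polymerase II makes them. The list held 41 windows that overlap no other window on their strand, among them SNR6 and SNR52, which RNA polymerase III makes. In all reads of RDY73 IAA over RDY73 DMSO, 1 rose (SNR63, 0.45 on the log2 scale) and 5 fell, with a median log2 change of -0.12, beside -1.24 for all genes, of which 1.16% rose and 77.9% fell. In labelled reads 29 of them were tested, 1 rose (SNR11, 0.88) and 11 fell, SNR6 (-1.74) included, and the median was -0.60, beside -1.97 for all genes, of which 0.385% rose and 83.9% fell. In RDY234 IAA over RDY234 DMSO the medians were -0.022 in all reads and 0.12 in labelled reads. The libraries were made by 3′ mRNA-seq, and whether these windows counted mature RNAs or other forms was not tested. Some windows held few reads, 5 to 23 per library for SNR3 and SNR53, beside 3135 to 11709 for SNR40. The medians therefore do not show how these RNAs were ended.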
